A study of Mus musculus with 2 samples.

Results

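Interferon-responding regulatory T (Treg) cells were examined in single-cell transcriptomes of sorted Treg cells from control mice, which had Foxp3 throughout life, and rescued mice, whose silenced Foxp3 was switched on after birth. A cell belonged to the class when its unique molecular identifiers (UMIs, which count captured RNA molecules) of Ifit1, Ifit3, Rsad2, Usp18 and Cmpk2 summed to 3 or more. The class held 374 of 7024 cells, 225 of 3634 in the control library and 149 of 3390 in the rescued library. Control cells were pooled from 5 male Foxp3DTR-GFP/y Cd4creERT2 mice, whose Foxp3 gene is active throughout life. Rescued cells were pooled from 4 male Foxp3LSL/y Cd4creERT2 mice, in which a stop cassette silences Foxp3 until Cre takes it out. Both groups were C57BL/6 mice, received 4-hydroxytamoxifen (4-OHT, the ligand that activates CreERT2) once on postnatal day 14, and carried a tdTomato reporter that the same Cre switches on. Cd4creERT2 acts in every cell that expresses Cd4, so it is not confined to Treg cells. GFP+ Treg cells were sorted from spleen and lymph nodes at 7 months. Each group had 1 library of pooled mice, so no difference between the libraries had a replicate check, no test was run, and every interval below covers counting error only.

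The label was checked against genes that the rule did not use. T cell markers (Cd3e, Cd3d, Cd3g, Cd4, Trac and Lck) made up 5492 counts per 1000000 UMIs (CPM) in control class cells and 6242 CPM in rescued class cells, against 6023 and 6605 CPM in the other cells. Foxp3, the lineage factor of Treg cells, was at 72.0 CPM in control and 451 CPM in rescued class cells, against 81.6 and 469 CPM in the other cells. Myeloid markers gave 0 and 4 UMIs in the class and red blood cell markers 0 and 0. Class cells had a median of 3924 UMIs in control and 4982 in rescued, against 3725 and 3806 in the other cells, and a median mitochondrial share of 9.16% and 8.50% against 9.46% and 9.10%. More class cells were among the highest Scrublet doublet scores, 5.78% against 3.37% of the other cells in control and 5.37% against 3.42% in rescued. Without those cells 63 genes were called higher in the comparison below, 55 of them among the 56 of all cells. The libraries shared 3 cell barcodes, which involved 1 class cell.

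Type I interferon is sensed by nearly all cells through its receptor, Ifnar1 with Ifnar2, whose kinases Jak1 and Tyk2 activate a complex of transcription factors that includes Stat2 and Irf9. The complex binds a short promoter element, the interferon-stimulated response element (ISRE), of genes that make a cell hostile to viruses. Among the rule genes, Ifit1 and Ifit3 encode proteins that bind viral RNA, Rsad2 encodes viperin, which makes an antiviral nucleotide, Cmpk2 encodes a nucleotide kinase, and Usp18 removes the ubiquitin-like protein Isg15 from proteins and dampens the receptor.

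The promoters of these genes are shown because the class was defined by their joint expression. Each window holds the 250 bases before the start of the gene (RefSeq, GRCm38.p6), and capitals mark the ISRE core, GAAA, any 2 bases and GAAA again (on the other strand TTTC, any 2 bases and TTTC), with overlapping matches allowed. Positions are counted back from the start of the gene. Ifit1 (chr19:34640639-34640888, plus strand) had matches that begin at positions -104 and -85, Ifit3 (chr19:34583279-34583528, plus strand) at -156 and -122, and Rsad2 (chr12:26456453-26456702, minus strand) at -120. Cmpk2 (chr12:26468965-26469214, plus strand) had no match in these letters. It lies beside Rsad2 on chromosome 12, with 12752 bases between the annotated starts of this divergent pair. No sequence is shown for Usp18 (chromosome 6, 121245906 to 121270917).
Ifit1: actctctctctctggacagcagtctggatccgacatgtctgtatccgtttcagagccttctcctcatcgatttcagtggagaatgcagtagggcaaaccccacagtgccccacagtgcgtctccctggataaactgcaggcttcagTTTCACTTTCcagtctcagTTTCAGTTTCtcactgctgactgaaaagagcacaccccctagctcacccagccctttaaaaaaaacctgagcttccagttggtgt
Ifit3: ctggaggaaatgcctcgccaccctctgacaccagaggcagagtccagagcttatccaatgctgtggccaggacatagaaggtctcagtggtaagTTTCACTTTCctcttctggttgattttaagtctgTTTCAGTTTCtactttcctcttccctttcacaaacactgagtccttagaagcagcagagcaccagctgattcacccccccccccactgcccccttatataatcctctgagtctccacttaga
Rsad2: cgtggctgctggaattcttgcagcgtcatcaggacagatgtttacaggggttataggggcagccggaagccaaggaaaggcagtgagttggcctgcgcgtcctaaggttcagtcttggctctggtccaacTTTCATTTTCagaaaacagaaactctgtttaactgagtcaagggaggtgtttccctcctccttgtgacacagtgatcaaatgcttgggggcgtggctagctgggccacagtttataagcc
Cmpk2: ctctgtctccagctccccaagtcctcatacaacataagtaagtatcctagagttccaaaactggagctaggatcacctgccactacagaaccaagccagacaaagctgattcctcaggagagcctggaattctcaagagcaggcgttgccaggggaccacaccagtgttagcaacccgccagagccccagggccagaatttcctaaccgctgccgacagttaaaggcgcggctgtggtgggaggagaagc

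The same core was searched in the 300 bases that run from 250 bases before to 50 bases after each start. It was present in 1131 of 32851 windows, or 3.44%, and in 226 of 5425 genes tested here that had a window, or 4.17%. Of the genes called higher in the class (defined below), 39 of 56 had a window and 21 of these held the core, or 53.8%. Without the rule genes it was 19 of 37, or 51.4%. Interferon-induced genes of the joined list (below) that were tested but not called held it in 10 of 26 genes, or 38.5%. Interferon-gamma GTPases, of which 5 of 15 were called, held it in 9 of 10 genes with a window, and MHC class I genes, of which 0 were called, in 5 of 16. The 8 resting and 6 activation genes with a window held it in 0 genes. A match describes these letters and is not a binding site.

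The rule fixed the following values, which are given as a description. Most Ifit1 UMIs of each library lay in the class, 853 of 1181 in control and 699 of 993 in rescued. Ifit1 was detected in 90.2% of control and 87.9% of rescued class cells, against 8.13% and 8.15% of the other cells. Ifit3 was detected in 57.8% and 60.4% of class cells, Usp18 in 68.0% and 64.4%, Cmpk2 in 20.4% and 25.5%, and Rsad2 in 18.7% and 24.8%. Ifit1 thus entered the sum of most class cells in both libraries, and Rsad2 and Cmpk2 of a minority. Outside the class Usp18 was detected in 13.0% of control and 7.68% of rescued cells.

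Class cells differed widely among themselves. The rule sum had a median of 5 UMIs in both libraries and reached 79 UMIs in a control cell and 60 UMIs in a rescued cell. At least 3 of the 5 genes were detected in 100 of 225 control cells (44.4%) and 71 of 149 rescued cells (47.7%). A single rule gene was detected in 31 control and 21 rescued class cells, which was Ifit1 in 20 and 14 of them and Usp18 in 8 and 4. Just inside the threshold were 82 control and 48 rescued cells with a sum of 3, and just outside it 201 and 129 cells with a sum of 2. Sums of 20 or more were found in 16 control and 18 rescued cells.

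A list of 95 interferon-induced genes, with the rule genes left out, was used to follow the response beyond the rule. Of these, 86 were in the table. They were the source of 227 UMIs per 10000 in the median control class cell and of 225 in the median rescued class cell. The other cells had medians of 110 and 115 per 10000. Only 1.85% of other control cells and 1.94% of other rescued cells lay above the class median of their library, while 7.56% and 6.04% of class cells lay at or under the median of the other cells. The lower quartile of the class was exceeded by 13.0% of other control cells and 7.28% of other rescued cells. Thus the class and the rest overlapped. When every cell was thinned to 2000 UMIs, a median of 23 genes of the list was detected in a control class cell and 22 in a rescued one, against 13 in the other cells of each library.

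The level of these genes was higher in cells with a higher rule sum. In control cells the 86 genes summed to 11166 CPM at a sum of 0, 12499 CPM at 1, 14623 CPM at 2, 15810 CPM at 3, 19773 CPM at 4 to 5, 26735 CPM at 6 to 9 and 35018 CPM at 10 or more. In rescued cells the corresponding levels were 11595, 13410, 15428, 19096, 18739, 27006 and 40540 CPM. Among the steps of 1 UMI, that across the threshold, from a sum of 2 to a sum of 3, was the largest in rescued cells and the smallest in control cells. The bins above 3 span several sums and the last is open, so their steps cannot be compared with it. The only step down was in rescued cells between a sum of 3 and of 4 to 5. Foxp3 at a sum of 0 was at 81.5 CPM in control and 468 CPM in rescued cells. At a sum of 10 or more it was at 61.1 CPM (35.6 to 97.9) and 408 CPM (330 to 499), with intervals that included the level at 0. Ctla4 was at 277 and 495 CPM at a sum of 0, and at 266 CPM (209 to 334) and 365 CPM (292 to 452) at 10 or more. The control interval of Ctla4 included the level at 0 and the rescued one lay below it.

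**Figure D1:**
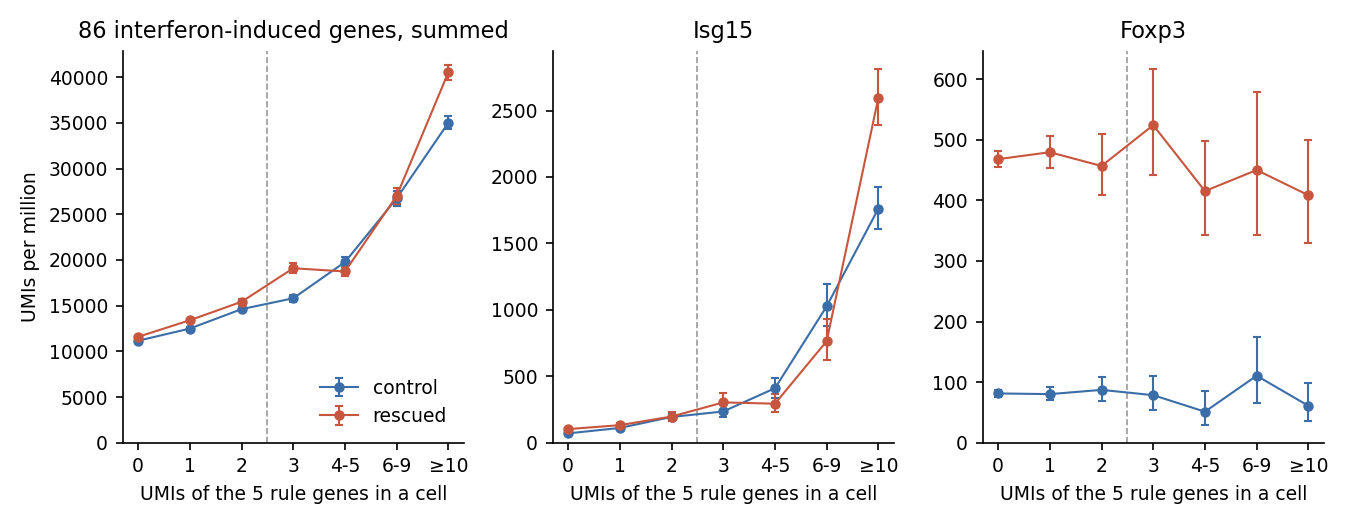
Level of 86 interferon-induced genes summed, of Isg15 and of Foxp3 (y axes, CPM) against the UMIs of the 5 rule genes in a cell (x axis) in the control and rescued libraries. Points are sums over cells, bars are 95% Poisson intervals and the dashed line is the class threshold. The interferon-induced genes reached 35018 CPM in control and 40540 CPM in rescued cells with 10 or more rule UMIs, while the Foxp3 intervals at 10 or more included the level at 0.

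Class cells were then compared with all other cells of the same library, gene by gene, among 6976 genes with at least 500 UMIs over all cells. Since the class was chosen in these cells by genes of the same pathway, the values describe its make-up and are no test. A gene was called when its level differed by at least 2-fold in the same direction in both libraries. By this measure 56 genes were higher in the class, or 0.803% of genes tested, and 1 was lower, or 0.0143%. The higher genes comprised 3 rule genes, 39 genes of the joined list, 6 further genes of other interferon lists and Ms4a4c of the list of Ly6 and Ms4a surface genes. Of the 56 genes, 53 were not used by the rule. The remaining 7, which were in none of these lists, were BC094916, Csprs, Gm4955, Mov10, Pyhin1, Samd9l and Trafd1. The median log2 ratio of the 70 joined-list genes tested was 1.15 in control and 1.27 in rescued, against -0.04 in both over all genes tested. Of these 70 genes, 39 were called higher, 0 were called lower and 67 lay above 0 in both libraries.

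**Figure D2:**
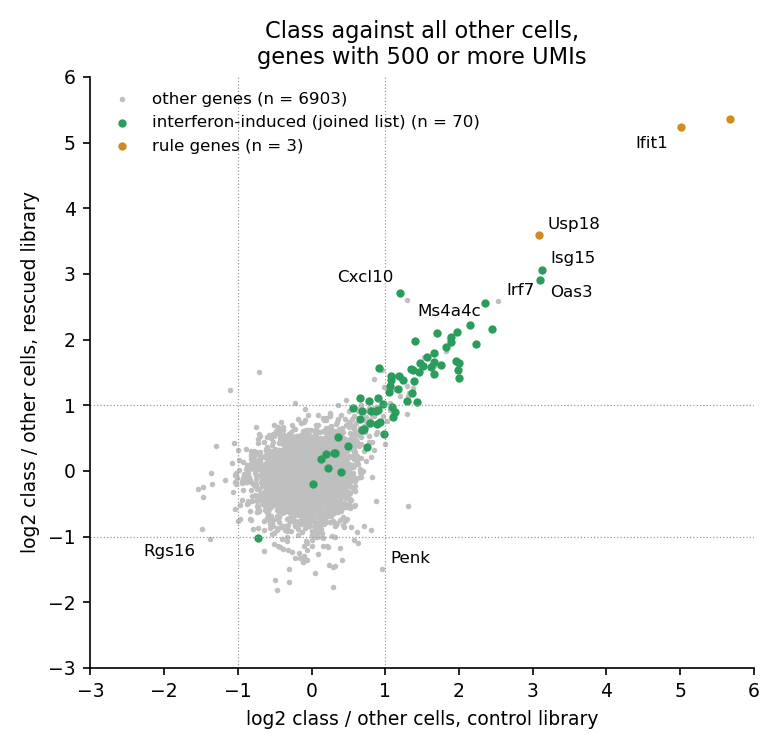
Log2 ratio of CPM between class cells and all other cells in the control (x axis) and rescued (y axis) libraries, for genes with 500 or more UMIs. Each point is a gene, dotted lines mark 2-fold, and Dapl1 lies outside the axes. Isg15 lies near the diagonal at 3.13 and 3.06, while Cxcl10 lies off it at 1.20 and 2.71 and Penk at 0.95 and -1.50, where 1 control cell held 105 of its 125 control class UMIs.

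Isg15, the ubiquitin-like protein that is attached to other proteins during the response, was among the genes highest in the class. It was at 760 CPM in control class cells and 87.1 CPM in the other control cells. In rescued cells it was at 947 and 113 CPM. The log2 ratios were 3.13 (3.00 to 3.25) and 3.06 (2.94 to 3.18). It was detected in 76.0% and 80.5% of class cells, against 22.9% and 32.0% of the other cells. The promoter of Isg15 (chr4:156200819-156201068, minus strand) holds 3 overlapping cores that begin at positions -78, -72 and -66.
Isg15: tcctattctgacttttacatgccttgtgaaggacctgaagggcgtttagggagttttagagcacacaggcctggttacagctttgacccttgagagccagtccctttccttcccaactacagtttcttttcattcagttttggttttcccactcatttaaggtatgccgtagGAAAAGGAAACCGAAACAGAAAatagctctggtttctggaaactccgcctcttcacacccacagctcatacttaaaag
Ube2l6, the enzyme that conjugates Isg15, had log2 ratios of 1.62 and 1.58, Herc6, its ligase, 1.40 and 1.37, and the activating enzyme Uba7, which was not called, 0.72 and 0.63. In all, 7 of 8 tested genes of the Ifit, Isg15 and ISGylation list were called higher.

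Antiviral effectors and sensors of nucleic acid were higher as well. Oas3, an enzyme that senses double-stranded RNA and makes an antiviral second messenger, was at 98.9 CPM in control class cells against 11.5 CPM in the other cells, and at 84.7 against 11.4 CPM in rescued cells, with log2 ratios of 3.10 (2.74 to 3.45) and 2.90 (2.49 to 3.30). The promoter of Oas3 (chr5:120777660-120777909, minus strand) holds 1 core at position -75.
Oas3: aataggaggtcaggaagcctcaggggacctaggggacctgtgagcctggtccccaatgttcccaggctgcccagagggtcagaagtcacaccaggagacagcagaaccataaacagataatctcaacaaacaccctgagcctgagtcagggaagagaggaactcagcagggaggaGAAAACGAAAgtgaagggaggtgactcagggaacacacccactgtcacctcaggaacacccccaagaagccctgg
Of 9 tested sensor genes, 5 were called higher. Dhx58, a regulator of RNA sensing, had log2 ratios of 2.45 and 2.17, Ifih1 (MDA5), a sensor of long double-stranded RNA, 1.95 and 1.67, Zbp1, a sensor of Z-form nucleic acid, 1.67 and 1.66, Ddx60 2.0 and 1.64, and Eif2ak2 (PKR), which halts translation on double-stranded RNA, 2.0 and 1.42. Ddx58 (RIG-I), a sensor of RNA ends, missed the call at 0.92 and 1.56, and Tmem173 (STING), the adaptor of DNA sensing, was at 0.23 and 0.05.

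Several named genes fell below the minimum of 500 UMIs and were not part of the counts. Mx1 had 67 UMIs in control and 69 in rescued class cells, at 58.1 and 75 CPM against 1.61 and 3.35 CPM in the other cells. Ifit3b, a near-identical copy of Ifit3 whose reads cannot be told apart with certainty, was at 104 and 105 CPM against 3.22 and 2.94 CPM. Oasl2 was at 87.6 and 45.6 CPM against 8.75 and 4.17 CPM. Ifi44 was at 75.5 and 27.2 CPM against 3.78 and 1.64 CPM, and Ifitm3, which blocks viral entry, at 46.0 and 15.2 CPM against 4.13 and 1.23 CPM. All were thus higher in the class in both libraries.

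Transcription factors of the pathway differed in extent. Irf7, which amplifies the response, was at 311 CPM in control class cells against 53.9 CPM in the other cells, and at 240 against 40.0 CPM in rescued cells, with log2 ratios of 2.53 (2.34 to 2.71) and 2.58 (2.35 to 2.81). Stat2 had log2 ratios of 1.52 and 1.73. Irf9 was at 0.82 (0.61 to 1.03) and 0.85 (0.61 to 1.09). Irf1, a factor that interferon-gamma induces strongly, was at 0.27 and 0.17, and Irf3, which is activated without a change in transcript level, at -0.07 and -0.02. Only Irf7 and Stat2 of the 10 tested factors were called.

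Receptor and kinase genes were close to the other cells, with 0 of 8 called and medians of -0.04 in control and 0.01 in rescued. Ifnar1 had log2 ratios of -0.06 and 0.11 and Ifnar2 of -0.05 and 0.00. Jak1 was at 0.08 and 0.07. Of the interferon ligands only Ifng was in the table, with 3 UMIs in control and 6 UMIs in rescued class cells. Among feedback genes, 0 of 6 were called, and Socs1, which blocks Jak kinases, was at 0.38 and 0.40. Counts of 0 in lists of 8 and 6 genes are near the share called over all genes tested, 0.803% higher and 0.0143% lower.

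The remaining interferon-induced genes included Rtp4 at 2.36 (2.17 to 2.54) and 2.56 (2.35 to 2.76), Slfn5 at 2.23 (2.0 to 2.44) and 1.94 (1.63 to 2.23), Pydc4 at 2.15 and 2.21, Phf11c at 1.98 and 2.11, Pydc3 at 1.89 and 2.04, Lgals3bp at 1.89 and 1.97, Xaf1 at 1.82 and 1.89 and Rnf213 at 1.71 and 2.10. BC094916 and Gm4955, which were in no list, were at 1.86 and 2.01 and at 1.82 and 1.82. Pydc3, Pydc4 and Phf11c have close paralogs in the table, so reads of these families may be split. Ifi27l2a, the gene of the joined list with the most class UMIs, was at 3970 against 1876 CPM in control and at 5362 against 1980 CPM in rescued cells, with log2 ratios of 1.08 and 1.44. Bst2 (tetherin), which holds budding virus on the membrane, was at 611 against 220 CPM and 597 against 192 CPM. Bst2 was also the main source of the plasmacytoid dendritic cell marker list, which summed to 668 CPM in control and 738 CPM in rescued class cells against 289 and 358 CPM, with 2 and 1 of its 5 measured markers higher in the class and 1 marker at 0 in each library. The CD8 T or NK cell list was at 92.8 and 70.6 CPM in the class against 66.6 and 45.0 CPM, with 4 and 3 of 7 markers at 0. Nkg7 gave 87 of its 107 control and 57 of its 65 rescued class UMIs, and 1 and 2 markers were higher in the class. The B cell list was at 62.5 and 137 CPM against 73.8 and 124 CPM, with 2 of 8 markers at 0 in each library. The part of such cells in the results was not tested.

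Genes that interferon-gamma induces were higher to a smaller extent. The guanylate-binding proteins and immunity-related GTPases, which attack membranes of intracellular microbes, had medians of 0.84 in control and 0.97 in rescued, with 5 of 15 called and 15 above 0 in both libraries. Gbp6 was at 1.68 and 1.62, Gbp9 at 1.32 and 1.19, Irgm1 at 1.13 and 1.24, Iigp1 at 1.08 and 1.38 and Gbp2 at 1.06 and 1.03. Genes of antigen presentation on MHC class I had medians of 0.14 and 0.19, with 0 of 19 called and 15 above 0 in both libraries. The count of 0 is near the share called over all genes tested, 0.803% higher and 0.0143% lower. H2-K1 was at 6197 CPM in control class cells against 6208 CPM in the other cells, and at 7433 against 7179 CPM in rescued cells. Among them Nlrc5, the transactivator of MHC class I genes, was at 0.68 and 0.52, and the nonclassical gene H2-T23 at 0.52 and 0.58.

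By the median over the list, the Treg programme of the class lay close to that of the other cells, with Ctla4 somewhat lower. The Treg core list had medians of -0.08 and -0.03. Of its 14 genes 0 were called, which is near the share called over all genes tested, 0.803% higher and 0.0143% lower. Foxp3 had log2 ratios of -0.18 (-0.52 to 0.14) in control and -0.06 (-0.20 to 0.08) in rescued. Ikzf2 (Helios) was at -0.07 (-0.15 to 0.01) and 0.00 (-0.08 to 0.07), Il2ra (CD25) at 0.08 (-0.08 to 0.24) and 0.19 (0.04 to 0.34), and Ctla4 at -0.21 (-0.39 to -0.03) and -0.12 (-0.26 to 0.02). Without the highest cell of each library Ctla4 was at -0.27 (-0.46 to -0.09) and -0.15 (-0.30 to -0.005). The tdTomato reporter was at -0.03 (-0.18 to 0.11) and -0.08 (-0.20 to 0.04). A single rescued class cell held 61 of the 580 reporter UMIs of the rescued class. Without the highest cell of each library the ratios were -0.11 (-0.26 to 0.04) in control and -0.23 (-0.36 to -0.10) in rescued, where the interval left out 0. Activation genes had medians of -0.19 and -0.07 and resting genes of 0.20 and -0.06. In either list 0 were called, again near the share over all genes tested.

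**Figure D3:**
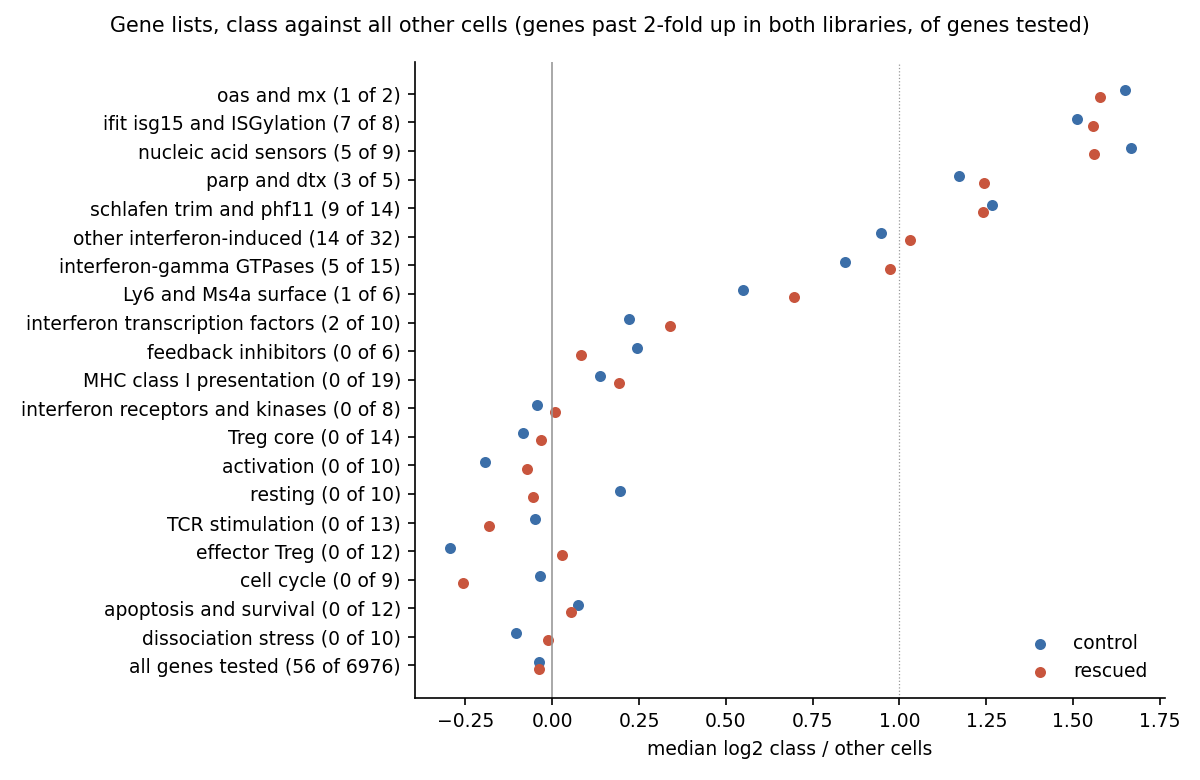
Median log2 ratio between class cells and all other cells (x axis) for each gene list (y axis) in the control and rescued libraries, with the number of genes past 2-fold in both libraries of the number tested. The dotted line marks 2-fold. Antiviral lists lie at or above 0.95 and interferon-gamma GTPases at 0.84 and 0.97. Receptor and Treg core lists lie near 0, MHC class I at 0.14 and 0.19, and the effector Treg list at -0.30 and 0.03.

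The lowest genes rested on few UMIs. Rgs16, a regulator that shortens G-protein signalling, was the only gene called lower, at 12.1 CPM (14 UMIs) in control class cells against 31.5 CPM, and at 22.8 CPM (21 UMIs) against 47.1 CPM in rescued cells. Its log2 ratios were -1.38 (-2.26 to -0.62) and -1.05 (-1.75 to -0.42), but after thinning to 2000 UMIs the control value was 0.017. The next lowest genes, Areg, Tmem109, Zfyve16, Txnrd2, Ddx20, Tsen54, Klf9, Ifitm2 and Znrf3, were not called and had 3 to 20 UMIs in the class of each library. Ifitm2 was at -0.73 (-1.62 to 0.04) and -1.02 (-2.04 to -0.17), whereas its relative Ifitm3 was higher in the class.

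The share of cells in the class was lower in the rescued library. It was 6.19% (5.43 to 7.02%, exact Clopper-Pearson) in control and 4.40% (3.73 to 5.14%) in rescued, with a log2 ratio of -0.49 (-0.80 to -0.19). Because deep cells pass a UMI threshold more easily, every cell was thinned and the rule applied again. At 2000 UMIs, for which 65 control and 33 rescued cells were too shallow, the shares were 3.14% (2.59 to 3.76%) and 1.73% (1.31 to 2.23%), with a log2 ratio of -0.86 (-1.34 to -0.39). At 1000 UMIs, where no cell was left out, they were 1.43% and 1.18%, and the interval of the log2 ratio, -0.28 (-0.91 to 0.34), included 0. The share was lower in rescued in each of 4 depth bins of about equal cell number, at 3.80% against 2.16%, 6.37% against 3.14%, 6.06% against 3.69% and 8.95% against 7.90% from the shallowest to the deepest. The interval of the log2 ratio left out 0 in the second bin, at -1.02 (-1.75 to -0.33), and in the third, at -0.72 (-1.41 to -0.05), and included it in the shallowest and the deepest bin. Whether mice of a group differed in this share cannot be told from pooled cells.

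**Figure D4:**
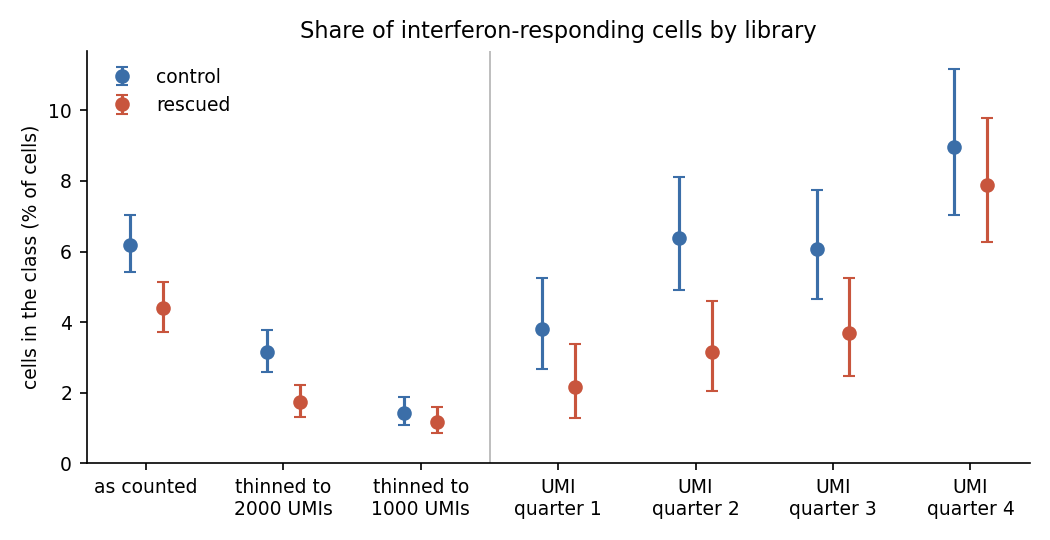
Share of cells in the interferon-responding class (y axis, percent of cells) in the control and rescued libraries, as counted, after thinning to 2000 and 1000 UMIs, and within 4 bins of cells by UMI count (x axis). Bars are 95% exact binomial intervals and cover counting error only. The rescued share lies below the control share in every pair, 4.40% against 6.19% as counted.

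The share of the class was also counted by tdTomato UMIs, which 62.9% of control and 55.9% of rescued cells had. No cells known to lack the reporter were at hand for a background, so these bins are not labelled and unlabelled cells. By flow cytometry at this time the paper reported a far larger tdTomato-positive fraction in rescued than in control Treg cells. Detection of the transcript had the reverse order. The class share among cells with 0 tdTomato UMIs was 6.53% in control and 3.88% in rescued. It was 5.48% and 4.44% among cells with 1 UMI, 5.87% and 4.63% among cells with 2 to 3 UMIs, and 7.26% and 5.19% among cells with 4 or more UMIs. The rescued share was lower at each level. The interval of the log2 ratio left out 0 only for cells with 0 tdTomato UMIs, at -0.75 (-1.26 to -0.26). Cells with more tdTomato UMIs were also deeper, with medians of 3508 and 3603 UMIs at 0 and of 4744 and 4570 at 4 or more. After thinning to 2000 UMIs, in the same bins, the shares at 0 tdTomato UMIs were 4.20% in control and 1.76% in rescued. They were 2.83% and 2.24% at 1, 2.13% and 1.56% at 2 to 3, and 2.60% and 1.36% at 4 or more. The share at 4 or more, the highest as counted, was then below the share at 0 in both libraries. Class cells were found in all 9 clusters made without interferon genes. The share was 2.07% in control and 2.33% in rescued in cluster 1, led by Asb2, Lag3, Neb, Prdm1 and Nav2. It was 8.40% and 9.52% in cluster 6, led by Ly6c1, Dapl1 and Igfbp4. This cluster held 25.4% of all class cells and was made up of 1036 control and 84 rescued cells. In cluster 2, led by S100a4, Ccr2 and S100a6, it was 4.13% and 5.26%. As counted, the rescued share was thus above the control share in clusters 1, 2 and 6, and below it in the other clusters. The interval of the log2 ratio left out 0 only in cluster 3, at -1.04 (-1.91 to -0.14). Cluster 8, led by Fam160a1, Lilrb4a and Atp2b4, had the highest shares among clusters with over 50 cells, at 11.3% and 10.0%, but its cells were also the deepest, with medians of 7806 and 6882 UMIs. After thinning to 2000 UMIs its shares were 2.38% and 1.80%, and those of cluster 6 were 5.03% and 2.38%. Thinned shares were 1.29% and 1.04% in cluster 1 and 2.66% and 2.54% in cluster 2. The rescued share was thus lower in clusters 1, 2 and 6 after thinning. It was then above the control share in clusters 4 and 7, at 1.57% against 1.54% and 3.13% against 0%. Every interval of these thinned log2 ratios included 0. With clusters weighted equally in both libraries the shares were 6.49% and 4.84%. Cluster 7, which had 10 cells in control and 32 in rescued, thereby counted as much as any larger cluster. It held 1 class cell in each library, a share of 10.0% (0.25 to 44.5%) in control and 3.13% (0.079 to 16.2%) in rescued. The gap between the weighted shares thus rested in part on single cells.

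Rescued class cells were next compared with control class cells, among 3650 genes with at least 100 UMIs in the class. The ratio among all other cells is given beside each value, since it shows what the libraries differed by outside the class. In the class 52 genes were at least 2-fold higher in rescued, or 1.42% of genes tested, and 34 were at least 2-fold lower, or 0.932%. Class cells and other cells come from the same libraries, so the 2 ratios of a gene stand side by side and are not independent of each other.

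The interferon-induced genes were, by the median over the list, at a like level in class cells of both libraries. The same rule on genes of this pathway admitted class cells in both libraries, so the values are a description and no test. At 10 or more rule UMIs the list was at 35018 CPM in control and 40540 CPM in rescued cells. At 4 to 5 rule UMIs the rescued level was the lower one, at 18739 against 19773 CPM. The joined list had a median log2 ratio of 0.04 in the class and of 0.01 among the other cells, and 1 gene, Cxcl10, was called higher and 1 gene, Ifi44, lower among 71 tested. Isg15 was at 0.32 (0.18 to 0.45) in the class and 0.38 (0.27 to 0.49) among the other cells, Irf9 at -0.05 (-0.35 to 0.25) and -0.08 (-0.19 to 0.02), and Irf7 at -0.37 (-0.62 to -0.13) and -0.43 (-0.59 to -0.27). Rtp4 was at -0.05 (-0.28 to 0.19) and -0.25 (-0.39 to -0.10). The rule genes, whose values the rule used, ranged from -0.42 for Usp18 to 0.32 for Rsad2.

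Some interferon-induced genes departed from this level. Ifi44 had 87 UMIs in control class cells and 25 in rescued ones, a log2 ratio of -1.48, with -1.20 among the other cells. Ms4a4c, a membrane protein gene, had 183 and 48 UMIs, -1.61 in the class and -2.93 outside it. Slfn5 was at -0.67 (-1.0 to -0.35) in the class and -0.38 (-0.55 to -0.21) outside. Below the minimum per gene or call were Ifitm3 at -1.60, Oasl1 at -1.04 and Oasl2 at -0.94, with -1.74, -2.44 and -1.07 among the other cells. Each of these was lower in rescued cells both inside and outside the class.

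Cxcl10, a chemokine that attracts Cxcr3-expressing cells, was among the genes that went the other way. It had 58 UMIs (50.3 CPM) in control and 291 UMIs (316 CPM) in rescued class cells, a log2 ratio of 2.65 (2.24 to 3.08), while the ratio among the other cells was 1.13 (0.94 to 1.33). It was detected in 7.56% of control and 20.8% of rescued class cells, against 2.67% and 6.42% of the other cells. A single cell held 21 of the 58 control UMIs and a single cell 58 of the 291 rescued UMIs, and without these cells the ratio was 2.98 (2.48 to 3.52). Cxcl10 was called higher in the class at 1.20 and 2.71, but without these cells the control value was 0.56 (0.02 to 1.05) and the call was lost. Gbp2b, a guanylate-binding protein, was at 2.35 (1.77 to 2.96) in the class and 1.86 (1.69 to 2.03) outside it. Smaller ratios above 0 included Gm4951 at 0.78 (0.42 to 1.14) in the class and 0.65 outside it. Iigp1 was at 0.61 (0.42 to 0.80) and 0.31, and Ifi27l2a at 0.43 (0.38 to 0.49) and 0.08.

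The highest gene was Ccr2, a chemokine receptor of migratory cells. It had 19 UMIs (16.5 CPM) in control and 139 UMIs (151 CPM) in rescued class cells, a log2 ratio of 3.20 (2.50 to 3.97), against 0.86 (0.70 to 1.01) among the other cells. Ccr2 was below the other cells in the control class, at -1.11 (-1.86 to -0.45), and above them in the rescued class, at 1.23 (0.96 to 1.49). With control class cells weighted to the clusters of rescued class cells the ratio between libraries was 1.97, and after thinning to 2000 UMIs it was 0.73. Foxp3 was at 2.65 (2.30 to 3.00) in the class and 2.52 (2.43 to 2.61) outside. The libraries carry different Foxp3 alleles, so allele and group cannot be told apart. Fgl2, a secreted suppressor molecule, was at 2.64 and 1.79, Zcchc18 at 2.61 and 1.75, Arl5a, a small GTPase of membrane traffic, at 2.35 and 1.32, and Epcam, an adhesion molecule, at 2.34 and 1.83. Activation genes had a median of 1.30 in the class and 0.86 outside it, with 4 of 7 tested called higher. They were Itgae (CD103) at 2.33 in the class and 2.02 outside it, the costimulator Icos at 1.80 and 1.29, the chemokine receptor Cxcr3 at 1.51 and 1.33, and the transcription factor Maf at 1.30 and 0.84.

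Igfbp4 was the lowest gene between the libraries inside the class. It had 183 UMIs in control and 25 in rescued class cells, at -2.55 (-3.21 to -1.94), against -2.13 among the other cells. Actn1 was at -2.42 and -1.90, Ly6c1, a surface protein of resting Treg cells, at -2.40 and -2.38, Ugcg at -1.81 and -1.36, Tcf7, a transcription factor of resting T cells, at -1.75 and -1.39, Tnfsf8 (CD30 ligand) at -1.69 and -0.98 and Treml2 at -1.68 and -1.11. Of 10 resting genes 9 were called lower, with a median of -1.52 in the class and -1.21 outside it. With the clusters of the class matched between the libraries, the median of the activation genes was 0.54 and that of the resting genes -0.72, and Igfbp4 was at -0.68 and Ly6c1 at -0.69. Penk, the precursor of enkephalins, was at -2.18 (-2.91 to -1.52) in the class and 0.27 (0.13 to 0.40) outside it. Of its 125 UMIs in control class cells 105 came from 1 cell, and without the highest cell of each library the ratio was -0.20 (-1.29 to 0.86). Without these cells the log2 ratio of class over other cells was -1.67 (-2.39 to -1.04) in control and -2.14 (-3.01 to -1.38) in rescued.

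**Figure D5:**
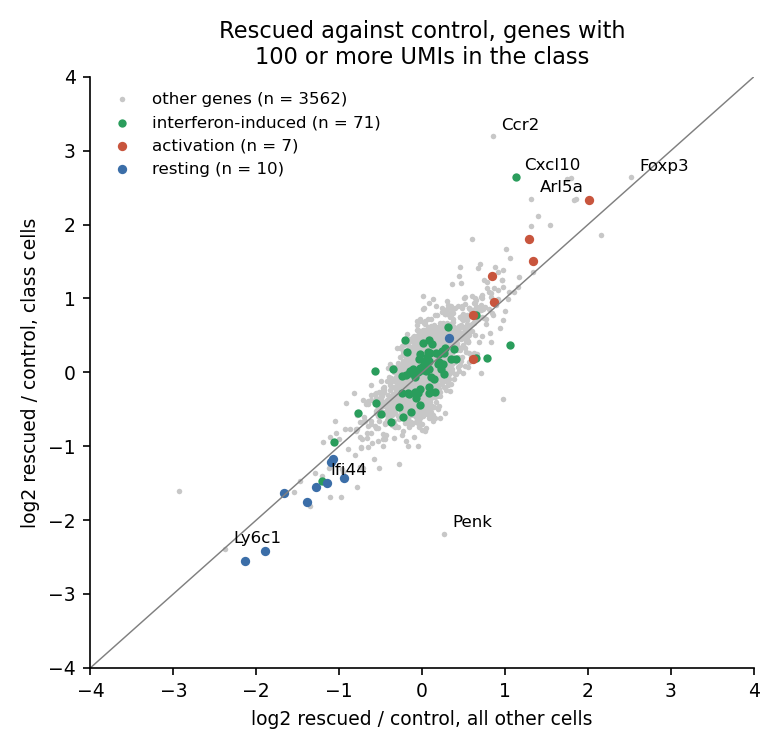
Log2 ratio of rescued over control among all other cells (x axis) and among class cells (y axis), for genes with 100 or more UMIs in the class. Each point is a gene and the line marks equal ratios. Interferon-induced genes gather around 0, activation genes lie up to Itgae at 2.33 and resting genes down to Igfbp4 at -2.55, while Ccr2, Cxcl10 and Penk lie farthest from the line among the labelled genes.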

How the data were processed

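The authors deposited counts, whole numbers of UMIs per gene and cell, for 7024 cells and 16098 genes, made with Cell Ranger 3.0 against GRCm38 with tdTomato added and, per the labels, Seurat 3.1.5. Counts are from the 3′ end of transcripts and were not normalized. The deposited log2 values were not used, and 0 further columns with values of samples were set aside. The study's methods describe removal of cells over 5% mitochondrial transcripts, but with mitochondrial UMIs divided by all UMIs 98.1% of control and 97.1% of rescued cells exceed this limit. All deposited cells were kept. Library totals were 15446201 UMIs in control and 15537656 UMIs in rescued cells, with 1415 to 46139 UMIs per cell.

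For each population of cells, UMIs were added up per gene and scaled to a total of 1000000 (CPM). Ratios carry conditional exact intervals, shares exact binomial intervals and sums exact Poisson intervals, all at 95%. Thinning drew a fixed number of UMIs per cell at random. Clusters (scanpy 1.11.5, Leiden resolution 1.0, 2000 variable genes, 30 components, 15 neighbours) were made without 287 genes, those of the interferon lists and those past 2-fold in class cells of both libraries. No doublet caller was applied as a filter. Removal of the 3.5% of cells with the highest Scrublet scores was an alternative. The code was tested on simulated counts.

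The class and the gene lists were chosen with earlier results of these data known. Named genes were the 15 highest and 10 lowest of the smaller of the 2 ratios of class over other cells, the 8 highest and 8 lowest of rescued over control, and genes listed by name, without mitochondrial, ribosomal, immunoglobulin and T cell receptor genes. Further list members are named as examples, chosen after their values were seen. Promoters came from RefSeq, and 47 of 52 named genes were located in GENCODE vM21. Some items of the pathway are not reported here.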

Additional observations from a re-analysis of the deposited data

Results flagged for a closer look

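Penk is listed because its class cells stood on opposite sides of the other cells in the 2 libraries, and because the ratio between libraries had opposite signs inside and outside the class, each with intervals that left out 0. The log2 ratio of class over other cells was 0.95 in control and -1.50 in rescued, and that of rescued over control was -2.18 in the class and 0.27 among the other cells. A single control cell held 105 of the 125 class UMIs. Without the highest cell of each library the ratio between libraries in the class was -0.20. The log2 ratio of class over other cells was then -1.67 in control and -2.14 in rescued, so the opposite signs of the class over other cells rested on that cell.

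Ccr2 had opposite signs of class over other cells, -1.11 in control and 1.23 in rescued. It was detected in 2.22% of control and 19.5% of rescued class cells. Without the highest cell of each library, the ratio between libraries was 3.81, and the ratios of class over other cells were -1.89 in control and 1.06 in rescued.

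Arl5a also had opposite signs, at -0.77 in control and 0.27 in rescued. Without the highest cells these were -0.87 and 0.20, and the interval of the rescued value, -0.05 to 0.44, included 0. No difference between libraries in these 3 genes was tested, since each group had 1 library.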

How the results depend on the processing

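No paired analysis was possible because both groups consist of 1 library and no replicate numbers exist. With 1 pooled library a group, neither the spread between mice nor any replicate left out could be examined. Depth limits the class: a threshold of UMIs in cells with medians of 3725 to 4982 UMIs misses cells with weak expression. Of 148 alternative values of the main results, 102 stayed within counting error or 1.5 times and 46 moved. The median of the interferon-induced genes between the libraries inside the class, 0.04, ranged from -0.07 to 0.25, and the other medians and the share ratio kept their sign under every alternative tried.

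The class share moved most with depth and rule. It was 11.7% in control and 8.20% in rescued at 2 UMIs, 3.11% and 2.36% at 5 UMIs, 3.14% and 1.73% thinned to 2000 UMIs (log2 ratio -0.86), 1.43% and 1.18% thinned to 1000 UMIs, and 1.84% and 1.18% without Ifit1 and Ifit3. Without cells over 10% mitochondrial UMIs the control share was 7.27%. Over all cells the rescued share was below the control share under every alternative tried. As counted, it was above the control share within clusters 1, 2 and 6. After thinning to 2000 UMIs it was below the control share in these clusters, and above it only in clusters 4 and 7.

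Genes called higher in the class numbered 36 at 2 UMIs, 82 at 5 UMIs, 80 without Ifit1 and Ifit3 and 65 thinned, where 41 of the main 56 were shared. The interferon-induced medians were 0.89 and 0.97 at 2 UMIs, 1.62 and 1.63 at 5 UMIs, 1.42 and 1.79 without Ifit1 and Ifit3, and 1.61 and 1.85 thinned to 2000 UMIs. Genes called lower, 1 in the main comparison, numbered 0 at 2 UMIs and with other cells weighted by cluster, 18 at 5 UMIs, 9 with a minimum of 200 UMIs, 4 without the highest doublet scores, 45 without Ifit1 and Ifit3, 2 without Rsad2 and Cmpk2, 36 after thinning and 2 without cells over 20000 UMIs, an alternative chosen after seeing the data, as was leaving out the highest cell of a gene. Rgs16 in control reversed from -1.38 to 0.017 when thinned. The cause was not tested.

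Inside the class, genes higher in rescued, 52 in the main comparison, numbered 84 at 2 UMIs, 28 at 5 UMIs, 104 with a minimum of 50 UMIs, 28 with 200, 24 with clusters matched and 14 thinned. Genes lower, 34 in the main comparison, numbered 19 at 5 UMIs, 72 with a minimum of 50 UMIs, 18 with 200 and 8 thinned, where only 495 genes reached the minimum. The activation median was 1.59 at 5 UMIs, 1.06 with a minimum of 50 UMIs, 0.54 with clusters matched and 1.72 thinned. The resting median was -0.72 with clusters matched and -1.95 thinned. Penk reversed from -2.18 to 0.95 when thinned.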

Other observations

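Other gene groups had medians of class over other cells from -0.30 to 0.07, against -0.04 in both libraries over all genes tested. Genes of T cell receptor stimulation had medians of -0.05 in control and -0.18 in rescued over 13 tested genes. Genes of the effector Treg programme were at -0.30 and 0.03 over 12, cell cycle genes at -0.03 and -0.26 over 9. Genes of apoptosis and survival were at 0.07 and 0.05 over 12. In each list 0 genes were called, which is near the share called over all genes tested, 0.803% higher and 0.0143% lower. Casp8, an initiator of apoptosis that can also act in inflammation, was at 0.52 and 0.43. Mki67, a marker of dividing cells, had 7 UMIs in control and 15 UMIs in rescued class cells.

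Il1rl1, the receptor of interleukin 33, had 10 UMIs in control and 45 UMIs in rescued class cells, which is below the minimum for the comparison between libraries. Its log2 ratio of class over other cells was -0.72 in control and 1.51 in rescued. Samhd1, which depletes nucleotides that viruses need, was detected at 1371 CPM in control and 1666 CPM in rescued class cells against 850 and 889 CPM in the other cells.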
